A study of Mus musculus with 12 samples.

Results

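A set of 42 antioxidant and Nrf2 target genes was followed in isolated pancreatic islets of 4 groups of mice. The members were listed by symbol, and their rows were found in the deposited table of 38561 genes through the Ensembl identifiers. All 42 were in the table, and all 42 passed the filter on low counts, as did 15352 genes in all. Each library came from 1 mouse, with 3 mice in each group and 12 libraries in total. NOD_insHEL mice were NOD/LtJ with the insHEL transgene (labelled B6-Tg(ILK3mHEL)3Ccg), NOD mice were NOD/LtJ without it, B10_insHEL mice were C57BL/10SnSg with it, and B10 mice were C57BL/10SnSg without it. In insHEL, hen egg lysozyme is known to be driven by an insulin promoter, which acts in beta cells, and the transgene's own RNA was not measured here. All 4 groups, the ones without insHEL included, carried the 129S7(B6)-Ragtm1Mom allele, were Rag-/- and therefore without mature T and B cells, had the MHC k haplotype, and were normoglycemic males aged 11 weeks. Pancreata were digested by collagenase while α-amanitin and actinomycin D blocked transcription, and islets were then picked under a microscope.

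Nrf2, encoded by Nfe2l2, is a transcription factor that the adaptor Keap1 holds for degradation until oxidants or electrophiles modify Keap1. Nrf2 then pairs with small Maf proteins on antioxidant response elements and drives genes for glutathione synthesis, quinone reduction, the thioredoxin system and NADPH supply. Pancreatic beta cells are known for low levels of catalase and of some glutathione peroxidases, and for a greater reliance on peroxiredoxins and thioredoxin.

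The core of the antioxidant response element is a short motif, searched here as TGACNNNGC and its reverse complement GCNNNGTCA on both strands in the 250 bases before each start in the RefSeq promoter table (GRCm38.p6). Of the 42 members 35 were in the table, and 7 of them (20%) had a match, against 11.5% of 27025 genes and 10.2% of 32851 promoters. The 7 were Nfe2l2, Gstm5, Gclm, Prdx1, Txnrd1, Sod1 and G6pdx, and Gclc, Gsr, Hmox1, Sod3, Prdx6, Gsta4 and Nnt were not in the table. The matches before an annotated start of 4 members are shown on the plus strand, which is the strand of these 4 genes. The stretches shown held 0 or 1 annotated exon bases, against 59, 82 and 89 around the matches of Nfe2l2, Gstm5 and G6pdx. Of the 4 genes shown, Gclm, Prdx1 and Sod1 passed a test reported here and Txnrd1 did not. Nfe2l2 and Gstm5, which are not shown, also passed. Capitals mark the core. A match is a description of the letters and not a measured site.
Gclm, the modifier subunit of glutamate-cysteine ligase, chr3:122245383-122245471: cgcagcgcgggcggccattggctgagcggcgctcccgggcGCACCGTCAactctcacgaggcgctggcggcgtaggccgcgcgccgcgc
Prdx1, a cytosolic peroxiredoxin, chr4:116685426-116685514: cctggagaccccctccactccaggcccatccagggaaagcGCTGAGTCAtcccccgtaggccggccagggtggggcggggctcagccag
Txnrd1, the cytosolic thioredoxin reductase, chr10:82859074-82859162: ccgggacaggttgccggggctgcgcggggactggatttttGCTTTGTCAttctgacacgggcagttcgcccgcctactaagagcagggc
Sod1, the cytosolic superoxide dismutase, chr16:90220666-90220754: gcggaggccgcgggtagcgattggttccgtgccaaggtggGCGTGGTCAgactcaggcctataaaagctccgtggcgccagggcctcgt
The core ended 125 bases before the start of Gclm, 124 before Prdx1, 47 before Sod1 and 83 before Txnrd1. For Txnrd1 the match stands before 1 of 3 starts in the table and lies within the annotated gene.

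Library totals ran between 2212062 counts (NOD_insHEL replicate 3) and 21138456 (B10 replicate 2), and the number of picked islets between 20 and 137. Expression is given as CPM, counts relative to the library's total, scaled by TMM, a correction of library size for composition. Beta cell markers (16 genes) summed to 263000 to 295000 CPM in NOD_insHEL, 255000 to 263000 in NOD, 206000 to 275000 in B10_insHEL and 185000 to 206000 in B10. Most of each sum was Ins1 (43000 to 83200 CPM over the 12 libraries) and Ins2 (106000 to 182000 CPM). Of 15 beta cell markers tested, 6 were called higher and 5 lower in NOD, averaged over the transgene. Over all genes 15.7% were called higher and 17.6% lower in that comparison. Acinar markers (30 genes, 26 tested) summed to 158 to 222 CPM in NOD_insHEL, 233 to 390 in NOD, 200 to 2830 in B10_insHEL and 4010 to 5080 in B10, with Amy2a5 at 0 in all 12 libraries. B10_insHEL replicate 2 stood apart in its group with an acinar score (mean log2 CPM of the list) of 4.90, the others having 0.78 and 0.15. Within the other groups the score ran between 0.48 and 1.21 (NOD_insHEL), 1.76 and 2.32 (NOD) and 5.31 and 5.64 (B10). A fit of the group means with this score as a covariate therefore rests mostly on B10_insHEL replicate 2. Endothelial markers (13 genes, 12 tested) summed to 1040 to 1210 CPM in NOD_insHEL, 1340 to 1910 in NOD, 1130 to 1200 in B10_insHEL and 974 to 1070 in B10. Of 12 lymphocyte markers 1 was tested, and Cd3e, Cd3d and Ms4a1 were at 0 in all libraries. In the sample descriptions the B10 libraries carry numbers apart from the range 1 to 29 of all others, so that a batch behind these numbers and the group cannot be told apart in a comparison with B10. NOD_insHEL against B10_insHEL and NOD_insHEL against NOD lie within the numbers 1 to 29. In bulk islets, fewer cells of a type and less RNA per cell cannot be told apart.

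Per kb of exon, the members spanned levels between 215 and 1.23 CPM per kb (mean of 12 libraries). The length was the union of all annotated exons of a gene, such as 1.81 kb for Gpx3, 3.47 kb for Fth1 and 10.01 kb for Sod2. It can exceed the length of the transcript expressed, so the order of the genes is approximate. Gpx3, the secreted glutathione peroxidase, was the highest at 215 CPM per kb, which was the 99.6 percentile of the genes tested. Txnip, which binds and inhibits thioredoxin, followed with 64.3 to 244 CPM per kb over the libraries, ferritin heavy chain Fth1 at 87.0, ferritin light chain Ftl1 at 65.1 and thioredoxin Txn1 at 42.9 CPM per kb. The 5 peroxiredoxins lay between 24.1 and 35.9 CPM per kb, and their lowest to highest library ranges overlapped one another. Catalase (Cat) was at 5.01 CPM per kb, the 52.3 percentile, and Gpx4, which reduces lipid peroxides, at 4.04 CPM per kb. For Gpx4, 34.7% of its 50-base stretches also occurred in another gene, most of them in Gpx4-ps2, so that its level is uncertain. Nrf2's own transcript Nfe2l2 had 17.6 and Keap1 13.7 CPM per kb, with overlapping ranges over the 12 libraries. The lowest 4 members were the mitochondrial thioredoxin reductase Txnrd2 (1.90), Gpx7 (1.37), Sod3 (1.30) and Gsta4 (1.23 CPM per kb).

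**Figure D1:**
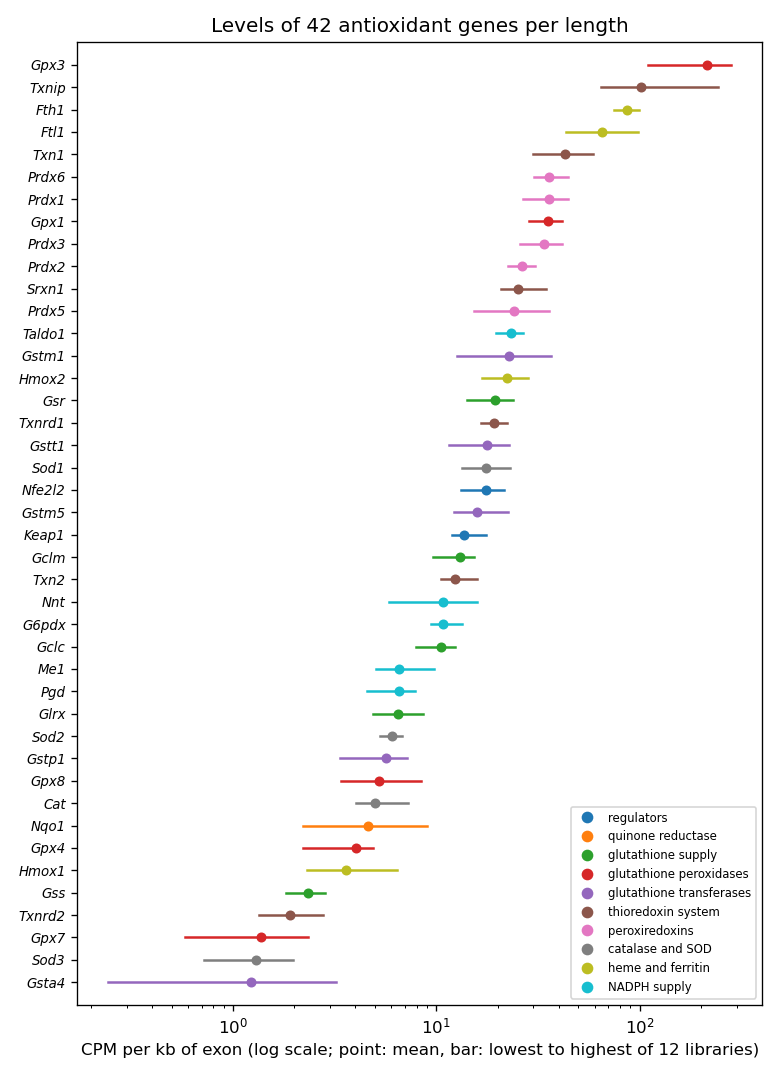
Level of each of the 42 genes in CPM per kb of exon (log axis, point for the mean and bar for the lowest to the highest of 12 libraries), coloured by role. The length is the union of all annotated exons, so the order is approximate. Gpx3 stands at the top with 215 CPM per kb and Gsta4 at the bottom with 1.23, and catalase at 5.01 lies below all 5 peroxiredoxins.

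Averaged over the transgene, the glutathione transferases Gsta4, Gstm1 and Gstm5 and the endoplasmic reticulum peroxidases Gpx7 and Gpx8 were higher on the NOD background. So were the NADPH enzymes Me1, Pgd and Nnt. The heme oxygenases Hmox1 and Hmox2, ferritin light chain Ftl1 and glutathione reductase Gsr were lower. Averaged over the transgene (6 NOD-background libraries against 6 B10-background libraries), 18 of 42 members passed an adjusted p of 0.05 in edgeR's quasi-likelihood test, 12 higher and 6 lower in NOD. That is 42.9% of the members, against 33.3% of all genes tested (15.7% higher and 17.6% lower). The median log2 difference was 0.03 over the members and 0.01 over all genes. By role, 3 of 5 glutathione transferases, 3 of 5 NADPH genes and 2 of 5 glutathione peroxidases were higher with none lower, and 3 of 4 heme and ferritin genes were lower with none higher. None of the 6 thioredoxin system genes passed, and 0 of the 6 had an unadjusted p under 0.05. The libraries of the 2 backgrounds did not overlap for 2 members, against 11.3% of all genes. These were Gpx7, higher (4.92% of all genes), and Gsr, lower (6.4%).

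In transgenic islets alone (NOD_insHEL against B10_insHEL), 4 of 42 members (9.52%) passed, against 12.1% of all genes (5.55% higher and 6.5% lower). Gsta4, Me1 and Nfe2l2 were higher and Ftl1 lower. In islets without insHEL (NOD against B10), 12 of 42 (28.6%) passed, against 28.4% of all genes (13.5% higher and 14.9% lower), with 7 higher (Gsta4, Gpx7, Gpx8, Gstm1, Prdx5, Pgd and Sod1) and 5 lower (Hmox1, Nqo1, Ftl1, Gsr and Gclm). This count was 7 without B10 replicate 2 and 7 without B10 replicate 3. Over all genes these 2 fits gave 3018 and 2995 calls, against 4353 with all libraries. The direction of the log2 difference was the same with and without insHEL for 31 of 42 members, and Gsta4 (higher) and Ftl1 (lower) passed in both. The shares of all genes for these counts were not computed, so they are not a result about the members. Within each transgene state, all NOD-background libraries lay above all B10-background ones for 6 members (Gsta4, Gstm1, Gpx7, Glrx, Cat and Nnt), against 7.49% of all genes. They lay below them in both states for 4 (Gsr, Gclc, Prdx3 and Ftl1), against 9.37%. Gclc, Glrx, Gstm5, Hmox2, Nnt, Prdx3 and Sod3 passed on average but in neither transgene state.

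**Figure D2:**
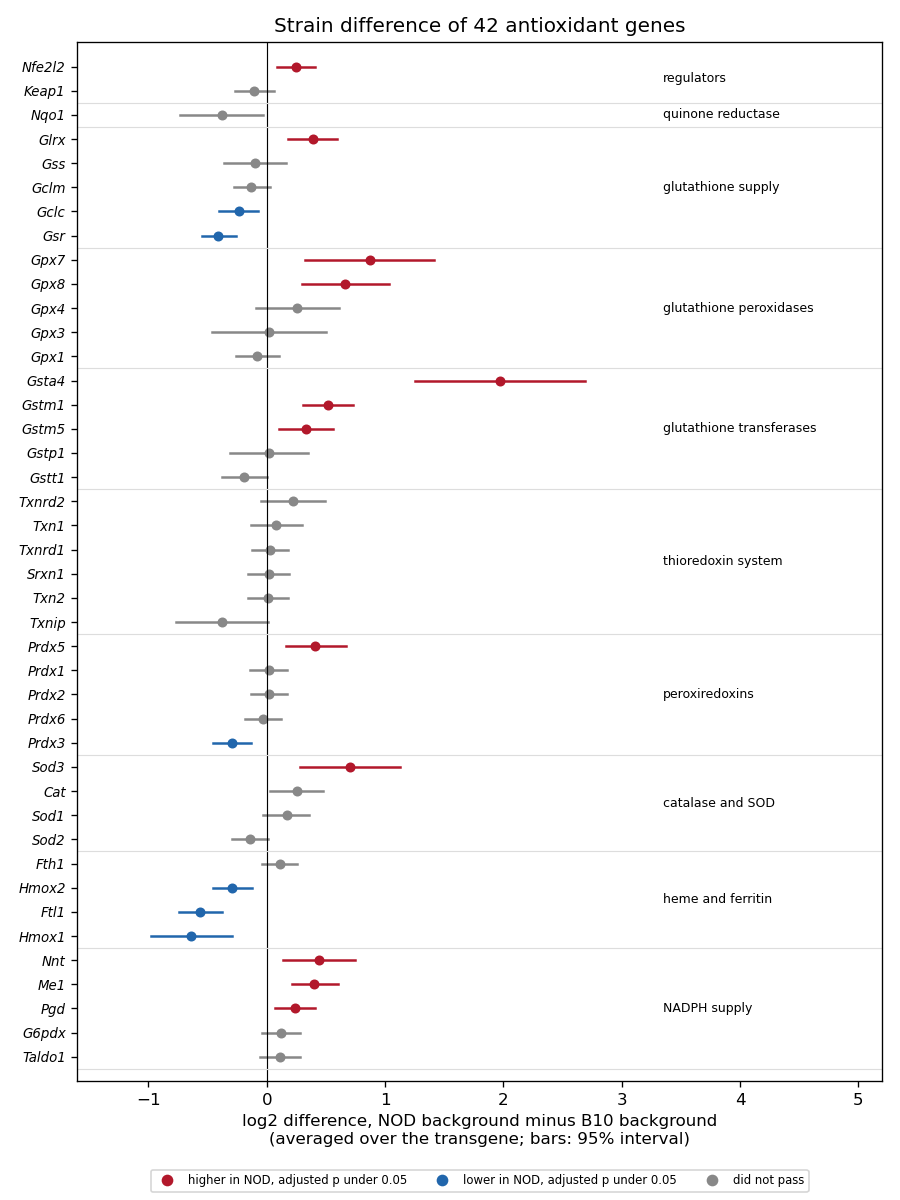
Log2 difference of each of the 42 genes, NOD background minus B10 background, averaged over the transgene, with its 95% interval, grouped by role. Red points (12 genes) were higher and blue points (6 genes) lower at an adjusted p under 0.05, grey points did not pass, and Gsta4 stands farthest right at 1.97.

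With insHEL, peroxiredoxin Prdx1 was higher and ferritin light chain Ftl1 lower in both strains, and the quinone reductase Nqo1 was lower in B10. In B10_insHEL against B10, 8 of 42 members (19.0%) passed, against 6.85% of all genes (4.09% higher and 2.76% lower). Prdx1, Prdx6, Txn1, Sod1 and Pgd were higher and Nqo1, Ftl1 and Nfe2l2 lower. In NOD_insHEL against NOD, 5 of 42 (11.9%) passed, against 7.06% of all genes (3.88% higher and 3.18% lower). Prdx1 and Me1 were higher and Gstt1, Gstm1 and Ftl1 lower. These comparisons share no library, and the direction was the same in both for 33 of 42 members. The share of all genes with the same direction was not computed, nor the share called in both comparisons, as Prdx1 and Ftl1 were. These counts are therefore not a result about the members. All libraries with insHEL lay above all without it within each strain for Prdx1 and G6pdx (2 members, against 4.46% of all genes) and below them for Ftl1, Gstm1, Gstt1, Cat and Txnrd2 (5 members, against 3.59%).

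Both counts depended on single libraries. In B10, the count of members was 5 without B10_insHEL replicate 1, 12 without B10_insHEL replicate 2, 3 without B10_insHEL replicate 3, 2 without B10 replicate 1, 4 without B10 replicate 2 and 1 without B10 replicate 3. In NOD it was 0 without NOD_insHEL replicate 1, 0 without NOD_insHEL replicate 2, 3 without NOD replicate 2 and 2 without NOD replicate 3. The calls over all genes moved as well. In B10 they lay between 428 (without B10 replicate 3) and 1566 (without B10_insHEL replicate 2), against 1052 with all libraries. In NOD they were 107, 171, 362 and 396 in the 4 fits just named, against 1084 with all libraries.

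**Figure D3:**
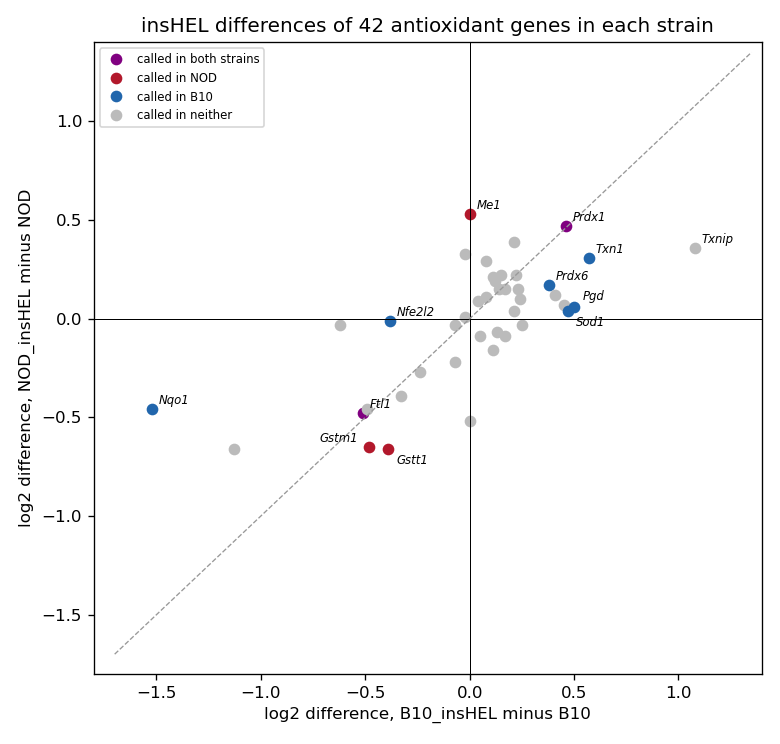
Log2 difference of each of the 42 genes with insHEL in B10 (horizontal axis) and in NOD (vertical axis), with the line of equal differences dashed. Prdx1 and Ftl1 (purple) passed in both strains, Nqo1 stands at the far left with -1.52 in B10 and -0.46 in NOD, and 33 of 42 genes have the same sign in both. The shares of all genes with the same sign, or passing in both strains, were not computed.

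The interaction, which is the insHEL difference in NOD minus that in B10, passed for 0 of 42 members in edgeR's quasi-likelihood test, against 0.0586% of all genes (9 genes, 0.0456% higher and 0.013% lower). An unadjusted p under 0.05 was found for 6 members (Nqo1, Me1, Pgd, Nfe2l2, Gclm and Sod1), and DESeq2 called 0. The share of all genes with such an unadjusted p was not computed, so the 6 are not a result about the members. For Nqo1 the interaction was 1.06 on the log2 scale (95% interval 0.36 to 1.76, adjusted p = 0.262). No member called in 1 strain alone was therefore shown to differ between the strains in its insHEL difference.

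Among the regulators, Nfe2l2 was higher in NOD (chr2:75675513-75704641, minus strand, GRCm38). Nfe2l2 had 65.6, 81.3 and 69.5 CPM in NOD_insHEL and 77.6, 71.7 and 68.3 CPM in NOD, against 53.5, 57.1 and 50.0 CPM in B10_insHEL and 65.7, 64.8 and 78.2 CPM in B10. The 3 B10_insHEL libraries were below all 9 others. Averaged over the transgene the strain difference was 0.25 (SE 0.08, adjusted p = 0.0234). It was 0.43 (SE 0.12, adjusted p = 0.0179) in transgenic islets and 0.06 (SE 0.11, adjusted p = 0.712) without insHEL. In B10_insHEL against B10 the difference was -0.38 (SE 0.11, adjusted p = 0.0488), and in NOD_insHEL against NOD -0.01 (SE 0.12, adjusted p = 0.98). With NOD_insHEL replicate 2, NOD replicate 1, B10_insHEL replicate 3 or B10 replicate 1 or 2 left out, Nfe2l2 did not pass in the averaged strain difference (adjusted p 0.0541 to 0.0916). For Nfe2l2, the strain difference in transgenic islets did not pass when NOD_insHEL replicate 2 or B10_insHEL replicate 3 was left out (adjusted p 0.0659 to 0.125). The insHEL difference in B10 of Nfe2l2 did not pass once B10_insHEL replicate 1 or 3 or B10 replicate 1, 2 or 3 was left out (adjusted p 0.0709 to 0.223). Keap1, its inhibitor, had 57.2 to 82.4 CPM over the 12 libraries and passed in none of the 6 comparisons.

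Nqo1 encodes the NADPH quinone reductase that is widely used as a readout of Nrf2 activity (chr8:107388225-107403206, minus strand, GRCm38). Nqo1 had 6.42, 3.43 and 4.23 CPM in NOD_insHEL and 7.35, 5.45 and 7.63 CPM in NOD, against 3.98, 3.91 and 5.36 CPM in B10_insHEL and 13.8, 10.3 and 14.0 CPM in B10. The 3 B10 libraries, at 10.3 to 14.0 CPM, were above all 9 others, which reached 7.63 CPM. Nqo1 fell to 0.348-fold in B10_insHEL against B10 (log2 difference -1.52, SE 0.24, adjusted p = 0.000735), the lowest log2 difference with insHEL among the members that passed. In NOD_insHEL against NOD the difference was -0.46 (SE 0.27, adjusted p = 0.305), with overlapping libraries. In NOD against B10 it was lower (log2 difference -0.91, SE 0.23, adjusted p = 0.00539), while NOD_insHEL against B10_insHEL gave 0.15 (SE 0.27, adjusted p = 0.786). Both calls of Nqo1 use the same 3 B10 libraries, which are also those with the highest acinar markers. The insHEL call in B10 held with the acinar score as a covariate, while the NOD against B10 difference was then -1.07 (adjusted p = 0.0799). The averaged strain difference was -0.38 (SE 0.18, adjusted p = 0.106), and it passed without NOD_insHEL replicate 1 (-0.59, adjusted p = 0.0277).

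Glutathione is made in successive steps by glutamate-cysteine ligase (catalytic subunit Gclc, modifier Gclm) and glutathione synthetase (Gss), and its oxidised form is reduced by glutathione reductase (Gsr). Gsr was lower in all 6 NOD-background libraries than in any B10-background one. Gsr had 51.0, 53.7 and 46.5 CPM in NOD_insHEL and 44.3, 41.4 and 38.9 CPM in NOD, against 57.7, 65.2 and 64.7 CPM in B10_insHEL and 59.0, 57.1 and 62.1 CPM in B10. The highest of the 6 NOD-background libraries (53.7 CPM) was below the lowest of the 6 B10-background ones (57.1 CPM). The averaged difference was -0.41 (SE 0.07, adjusted p = 0.000293), and it passed under every alternative run. It was -0.51 (SE 0.10, adjusted p = 0.00105) without insHEL and -0.30 (SE 0.11, adjusted p = 0.0748) in transgenic islets.

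Gclc was lower in NOD on average. Gclc had 41.3, 35.1 and 38.0 CPM in NOD_insHEL and 29.8, 37.7 and 36.1 CPM in NOD, against 43.3, 46.4 and 44.9 CPM in B10_insHEL and 39.0, 41.9 and 41.2 CPM in B10. This made a log2 difference of -0.23 (SE 0.08, adjusted p = 0.0351). Only NOD_insHEL replicate 1 reached the range of the B10-background libraries. Gclm was lower in NOD than in B10 without insHEL. Gclm had 86.0, 91.8 and 85.9 CPM in NOD_insHEL and 77.0, 60.4 and 72.9 CPM in NOD, against 85.3, 81.7 and 88.4 CPM in B10_insHEL and 79.6, 82.9 and 96.6 CPM in B10. On the log2 scale the difference was -0.30 (SE 0.11, adjusted p = 0.0467). The 3 NOD libraries were below all 9 others. Averaged over the transgene the value for Gclm was -0.13 (SE 0.08, adjusted p = 0.231). Glutaredoxin Glrx, which removes glutathione from protein thiols, was higher in NOD on average. Glrx had 47.3, 41.3 and 40.8 CPM in NOD_insHEL and 34.0, 32.6 and 46.2 CPM in NOD, against 32.7, 26.8 and 37.9 CPM in B10_insHEL and 30.9, 27.2 and 29.6 CPM in B10. Its log2 difference was 0.39 (SE 0.10, adjusted p = 0.00668). Glrx passed neither in transgenic islets (0.42, SE 0.15, adjusted p = 0.0716) nor without insHEL (0.35, SE 0.14, adjusted p = 0.0716). The groups did not overlap within either transgene state. With NOD_insHEL replicate 2, NOD replicate 1, B10_insHEL replicate 2 or B10 replicate 2 or 3 left out, Gclc did not pass in the averaged strain difference (adjusted p 0.0506 to 0.0933). For Gclm, the NOD against B10 difference did not pass when NOD replicate 2 or 3 or B10 replicate 2 or 3 was left out (adjusted p 0.0619 to 0.23). Gss had 10.8 to 16.7 CPM and passed in none of the 6 comparisons. Gss lies over Acss2 on the opposite strand, and the strand setting of the counting is not stated.

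Of the glutathione peroxidases, Gpx7 and Gpx8, which reside in the endoplasmic reticulum, were higher on the NOD background. Gpx7 had 2.88, 1.98 and 1.88 CPM in NOD_insHEL and 2.15, 1.74 and 3.02 CPM in NOD, against 1.72, 1.65 and 1.03 CPM in B10_insHEL and 1.46, 0.991 and 0.750 CPM in B10. The 6 NOD-background libraries were all above the 6 B10-background ones, the closest being 1.74 CPM in NOD replicate 2 and 1.72 CPM in B10_insHEL replicate 1. The averaged difference was 0.87 (SE 0.28, adjusted p = 0.0209). Gpx8 had 3.93, 6.99 and 6.10 CPM in NOD_insHEL and 6.85, 8.29 and 8.78 CPM in NOD, against 3.76, 4.35 and 4.44 CPM in B10_insHEL and 5.44, 3.56 and 3.54 CPM in B10. The 3 NOD libraries were above all 6 B10-background libraries, while NOD_insHEL overlapped with them. Between the strains Gpx8 differed by 0.66 (SE 0.19, adjusted p = 0.00945) on average. Without insHEL the difference was 1.06 (SE 0.38, adjusted p = 0.0408) for Gpx7 and 0.92 (SE 0.25, adjusted p = 0.00801) for Gpx8. In transgenic islets it was 0.67 (SE 0.41, adjusted p = 0.318) and 0.40 (SE 0.28, adjusted p = 0.402) for the same genes. The averaged strain difference of Gpx7 did not pass once NOD_insHEL replicate 1, NOD replicate 3, B10_insHEL replicate 3 or B10 replicate 2 or 3 was left out (adjusted p 0.0502 to 0.0977). With NOD_insHEL replicate 2 left out, Gpx8 did not pass in the averaged strain difference (log2 difference 0.53, adjusted p = 0.0554). For Gpx7, the NOD against B10 difference did not pass when NOD replicate 1 or 3 or B10 replicate 2 or 3 was left out (adjusted p 0.0787 to 0.167). The NOD against B10 difference of Gpx8 did not pass once B10 replicate 2 was left out (log2 difference 0.79, adjusted p = 0.055). Gpx1, Gpx3 and Gpx4 passed in none of the 6 comparisons. Gpx3 varied between 200 and 510 CPM within the NOD background and between 235 and 479 CPM within the B10 background. It was lowest in NOD replicate 2 (200 CPM) and B10 replicate 3 (235 CPM). These libraries also had the least Gcg, an alpha cell marker, at 6720 and 5430 CPM, against 20000 to 31300 CPM in the others. A part of alpha cell RNA in the spread of Gpx3 was not tested. Markers of stellate and endothelial cells also differed by strain on average. Stellate markers (12 genes) summed to 1050 to 1540 CPM in NOD_insHEL and 1070 to 1550 CPM in NOD, against 797 to 1090 CPM in B10_insHEL and 750 to 973 CPM in B10, and 5 of 12 passed as higher and 0 as lower on average. Of 12 endothelial markers tested, 8 passed as higher and 1 as lower on average. Over all genes 15.7% passed as higher and 17.6% as lower in that comparison. The endothelial calls differed by transgene state. Without insHEL 10 passed as higher and 0 as lower, and in transgenic islets 0 as higher and 2 as lower. Their part in the strain differences of Gpx7, Gpx8 and the other members was not tested.

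Glutathione transferases couple glutathione to electrophiles. Gsta4, which acts on the lipid peroxidation product 4-hydroxynonenal, had the highest strain difference of the 42 (chr9:78182774-78209349, plus strand, GRCm38). Gsta4 had 3.26, 0.791 and 1.41 CPM in NOD_insHEL and 3.39, 4.07 and 1.73 CPM in NOD, against 0.430, 0.522 and 0.309 CPM in B10_insHEL and 1.29, 0.676 and 0.886 CPM in B10. The lowest NOD-background library (0.791 CPM) lay below the B10 libraries at 1.29 and 0.886 CPM, while within each transgene state the groups did not overlap. Gsta4 was 3.91-fold higher in NOD on average (log2 difference 1.97, SE 0.37, adjusted p = 0.000328), with a difference of 2.20 (SE 0.59, adjusted p = 0.0164) in transgenic islets and 1.73 (SE 0.44, adjusted p = 0.00597) without insHEL. These values rest on 3 to 56 raw counts per library, and none of its 50-base stretches occurred in another gene. With NOD_insHEL replicate 1 or B10_insHEL replicate 3 left out, Gsta4 did not pass in the strain difference in transgenic islets (log2 difference 1.16 to 2.03, adjusted p 0.0533 to 0.364).

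Gstm1 was higher in NOD than in B10, and lower in NOD_insHEL than in NOD. Gstm1 had 28.4, 29 and 36.6 CPM in NOD_insHEL and 48.4, 42.3 and 53.7 CPM in NOD, against 24.0, 18.6 and 25.4 CPM in B10_insHEL and 31.9, 26.9 and 35.9 CPM in B10. The NOD libraries were above all others. The strain difference was 0.52 (SE 0.11, adjusted p = 0.000762) on average and 0.61 (SE 0.14, adjusted p = 0.00357) without insHEL. With insHEL the difference was -0.65 (SE 0.15, adjusted p = 0.0162) in NOD and -0.48 (SE 0.15, adjusted p = 0.0546) in B10. For Gstm1, 18.9% of its 50-base stretches occurred in other genes, most of them in Gstm2-ps1. Gstt1 was lower with insHEL in NOD. Gstt1 had 20.3, 17.7 and 22.1 CPM in NOD_insHEL and 34.7, 26.6 and 32.1 CPM in NOD, against 21.6, 26.6 and 25.9 CPM in B10_insHEL and 33.2, 31.9 and 31.8 CPM in B10. This made a log2 difference of -0.66 (SE 0.14, adjusted p = 0.0111). All 6 libraries with insHEL were at or below the 6 without it, NOD replicate 2 and B10_insHEL replicate 2 both reading 26.6 CPM, and the B10 difference was -0.39 (SE 0.13, adjusted p = 0.0832). For Gstm1, the insHEL difference in NOD did not pass when NOD_insHEL replicate 1 or 2, or NOD replicate 3 was left out (adjusted p 0.0715 to 0.104). The insHEL difference in NOD of Gstt1 did not pass once NOD_insHEL replicate 1 or 2 was left out (adjusted p 0.06 to 0.0867).

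Gstm5 was higher in NOD on average. Gstm5 had 23.5, 21.8 and 28.6 CPM in NOD_insHEL and 17.3, 19.1 and 26.5 CPM in NOD, against 19.2, 16.9 and 19.5 CPM in B10_insHEL and 19.3, 16.5 and 15.6 CPM in B10. On the log2 scale the difference was 0.33 (SE 0.12, adjusted p = 0.0373). The strains did not overlap in transgenic islets and overlapped without insHEL. With NOD_insHEL replicate 1 or 3, NOD replicate 3, B10_insHEL replicate 2 or B10 replicate 2 or 3 left out, Gstm5 did not pass in the averaged strain difference (adjusted p 0.0616 to 0.13). Gstp1 had 5.16 to 11.1 CPM and passed in none of the 6 comparisons, and its counts are uncertain because 33.7% of its 50-base stretches also occur in Gstp2.

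**Figure D4:**
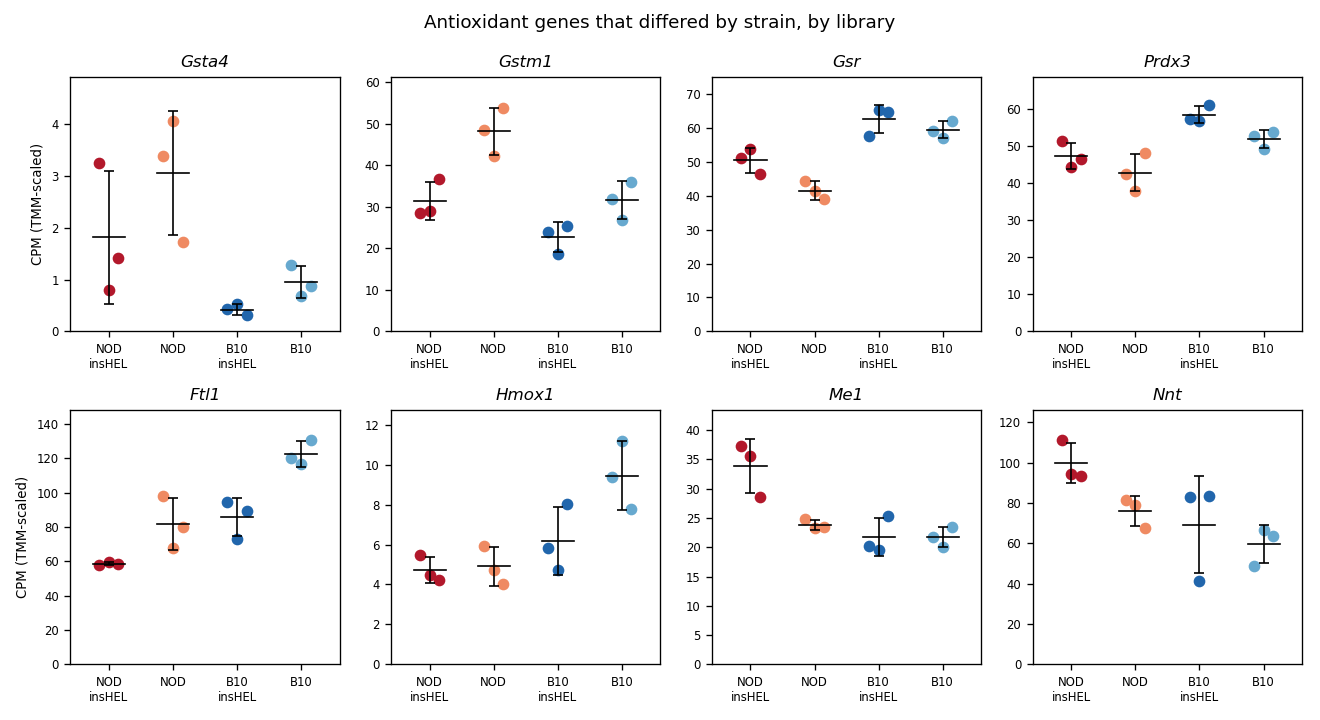
TMM-scaled CPM per library (points) with group mean and SD (n = 3 each) for Gsta4, Gstm1, Gsr, Prdx3, Ftl1, Hmox1, Me1 and Nnt. For Gsr all 6 NOD-background points lie below the 6 B10-background points, and for Me1 the 3 NOD_insHEL points (28.6 to 37.3 CPM) lie above all others.

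In the thioredoxin system, thioredoxin Txn1 passed for insHEL in B10. Txn1 had 61.7, 44.6 and 45.1 CPM in NOD_insHEL and 35.5, 38.7 and 50.0 CPM in NOD, against 52.6, 44.9 and 60.8 CPM in B10_insHEL and 36.5, 31.4 and 38.8 CPM in B10. Its log2 difference was 0.57 (SE 0.15, adjusted p = 0.028). The 3 B10_insHEL libraries were above the 3 B10 ones, while NOD_insHEL and NOD overlapped, with a difference of 0.31 (SE 0.16, adjusted p = 0.234). For Txn1, the insHEL difference in B10 did not pass when B10_insHEL replicate 1 or 3 or B10 replicate 1, 2 or 3 was left out (adjusted p 0.0503 to 0.145). Txnip passed in none of the 6 comparisons. Txnip had 376, 276 and 245 CPM in NOD_insHEL and 251, 217 and 233 CPM in NOD, against 406, 762 and 335 CPM in B10_insHEL and 250, 258 and 201 CPM in B10. B10_insHEL replicate 2, the library with the high acinar score, read 762 CPM, and the insHEL difference in B10 was 1.08 (SE 0.28, adjusted p = 0.0516). Fitted with the acinar score, the Txnip difference with insHEL was 1.81 in B10 (adjusted p = 2.96e-05) and 0.62 in NOD (adjusted p = 0.0158). In that fit NOD against B10 was 0.78 (adjusted p = 0.0212), against -0.02 without the score, and the interaction was -1.18 (adjusted p = 0.0261). The score varied within groups mostly through B10_insHEL replicate 2, the library that read 762 CPM, so these fitted values rest largely on 1 library. Without B10_insHEL replicate 3 the averaged strain difference of Txnip was -0.49 (adjusted p = 0.0465). Txnip overlaps the antisense gene Gm15441. Txn2, Txnrd1, Txnrd2 and Srxn1, which reduces overoxidised peroxiredoxins, passed in none of the 6 comparisons, and their averaged strain differences lay between 0.01 and 0.22 on the log2 scale.

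Peroxiredoxins reduce hydrogen peroxide with thioredoxin. Prdx1 was higher with insHEL in both strains. Prdx1 had 133, 135 and 110 CPM in NOD_insHEL and 98.5, 80.8 and 96.6 CPM in NOD, against 124, 122 and 130 CPM in B10_insHEL and 93.8, 85.3 and 94.2 CPM in B10. All 6 libraries with insHEL, at 110 to 135 CPM, were above the 6 without it, which reached 98.5 CPM. The difference was 0.47 (SE 0.11, adjusted p = 0.0169) in NOD and 0.46 (SE 0.11, adjusted p = 0.0146) in B10. Of its 50-base stretches 8.81% occurred in other genes, most often in Gm21399, which had 39.0 to 51.7 CPM in the 6 libraries with insHEL and 29.4 to 38.7 CPM in the 6 without it. The insHEL difference in NOD of Prdx1 did not pass once NOD_insHEL replicate 1 or 2, or NOD replicate 2 was left out (adjusted p 0.0956 to 0.0997). With B10_insHEL replicate 3 or B10 replicate 2 or 3 left out, Prdx1 did not pass in the insHEL difference in B10 (adjusted p 0.054 to 0.0944).

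Prdx6, which also reduces phospholipid peroxides, was higher with insHEL in B10. Prdx6 had 177, 168 and 196 CPM in NOD_insHEL and 179, 148 and 153 CPM in NOD, against 191, 189 and 214 CPM in B10_insHEL and 145, 154 and 157 CPM in B10. This made a log2 difference of 0.38 (SE 0.11, adjusted p = 0.032). The B10_insHEL libraries were above the B10 ones, and in NOD the difference was 0.17 (SE 0.11, adjusted p = 0.361). Mitochondrial Prdx3 was lower on the NOD background. Prdx3 had 51.3, 44.3 and 46.5 CPM in NOD_insHEL and 42.6, 37.9 and 48.1 CPM in NOD, against 57.4, 56.9 and 61.2 CPM in B10_insHEL and 52.7, 49.3 and 53.8 CPM in B10. On the log2 scale the averaged difference was -0.29 (SE 0.08, adjusted p = 0.00777). Prdx3 passed neither in transgenic islets (-0.30, SE 0.11, adjusted p = 0.095) nor without insHEL (-0.28, SE 0.11, adjusted p = 0.0612). The groups did not overlap within either transgene state. Prdx5 was higher in NOD on average and without insHEL. Prdx5 had 59.6, 45.6 and 76.5 CPM in NOD_insHEL and 60.4, 55.5 and 57.0 CPM in NOD, against 57.8, 33.0 and 51.2 CPM in B10_insHEL and 45.3, 38.7 and 38.2 CPM in B10. B10_insHEL replicate 2 was the lowest of the 12 at 33.0 CPM. The difference of Prdx5 was 0.41 (SE 0.13, adjusted p = 0.0235) on average and 0.50 (SE 0.18, adjusted p = 0.05) without insHEL, where the p was just under the threshold before rounding. Fitting the acinar score made these 0.11 (adjusted p = 0.684) and 0.01 (adjusted p = 0.984). For Prdx6, the insHEL difference in B10 did not pass when B10_insHEL replicate 3 or B10 replicate 1, 2 or 3 was left out (adjusted p 0.0929 to 0.142). The averaged strain difference of Prdx5 did not pass once NOD_insHEL replicate 1 or 3, NOD replicate 1 or B10 replicate 2 or 3 was left out (adjusted p 0.0506 to 0.0568). With NOD replicate 1, 2 or 3 or B10 replicate 1, 2 or 3 left out, Prdx5 did not pass in the NOD against B10 difference (adjusted p 0.0559 to 0.156). Prdx5 overlaps Trmt112 on the opposite strand. Prdx2 had 68.3 to 93.5 CPM and passed in none of the 6 comparisons.

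Of the superoxide dismutases and catalase, Sod1 was higher in B10_insHEL than in B10, and in NOD than in B10. Sod1 had 79.2, 78.8 and 62.9 CPM in NOD_insHEL and 76.9, 58.9 and 82.8 CPM in NOD, against 76.8, 63.3 and 91.6 CPM in B10_insHEL and 59.6, 53.3 and 54.2 CPM in B10. The 3 B10 libraries, shared by both comparisons, lay between 53.3 and 59.6 CPM and included the lowest of the 12. The insHEL difference in B10 was 0.47 (SE 0.14, adjusted p = 0.0467), and that of NOD against B10 was 0.38 (SE 0.14, adjusted p = 0.0457). When the acinar score was fitted, Sod1 differed by 0.10 (adjusted p = 0.888) and 0.03 (adjusted p = 0.943) in the same comparisons. For Sod1, the insHEL difference in B10 did not pass when B10_insHEL replicate 1 or 3 or B10 replicate 1, 2 or 3 was left out (adjusted p 0.0784 to 0.242). The NOD against B10 difference of Sod1 did not pass once NOD replicate 1 or 3 or B10 replicate 1, 2 or 3 was left out (adjusted p 0.0605 to 0.208). The extracellular dismutase Sod3 was higher in NOD on average. Sod3 had 6.42, 5.67 and 6.57 CPM in NOD_insHEL and 2.89, 7.41 and 7.20 CPM in NOD, against 2.69, 4.09 and 4.33 CPM in B10_insHEL and 3.63, 3.33 and 3.88 CPM in B10. Its log2 difference was 0.70 (SE 0.22, adjusted p = 0.0167). Sod3 passed neither in transgenic islets (0.73, SE 0.32, adjusted p = 0.153) nor without insHEL (0.68, SE 0.29, adjusted p = 0.0884). NOD replicate 1, at 2.89 CPM, lay within the range of B10_insHEL, and the other 5 NOD-background libraries were above all 6 B10-background ones. With NOD replicate 2 left out, Sod3 did not pass in the averaged strain difference (log2 difference 0.58, adjusted p = 0.0664). Mitochondrial Sod2 and Cat passed in none of the 6 comparisons.

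Heme oxygenases break down heme and ferritin stores the iron. Ftl1 was lower on the NOD background and lower with insHEL (chr7:45457944-45459884, minus strand, GRCm38). Ftl1 had 58.0, 59.6 and 58.7 CPM in NOD_insHEL and 98.0, 68.0 and 80.1 CPM in NOD, against 94.7, 73.2 and 89.4 CPM in B10_insHEL and 120, 117 and 131 CPM in B10. NOD_insHEL was the lowest group and B10 the highest, with no overlap of either with the other groups. The strain difference was -0.56 (SE 0.09, adjusted p = 7.19e-05) on average, -0.54 (SE 0.13, adjusted p = 0.0078) in transgenic islets and -0.58 (SE 0.12, adjusted p = 0.0018) without insHEL, and it passed under every alternative run. With insHEL the difference was -0.48 (SE 0.13, adjusted p = 0.0307) in NOD and -0.51 (SE 0.12, adjusted p = 0.0165) in B10. For Ftl1, the insHEL difference in NOD did not pass when NOD_insHEL replicate 1 or 2, or NOD replicate 1 or 3 was left out (adjusted p 0.0728 to 0.139). The insHEL difference in B10 of Ftl1 did not pass once B10 replicate 1 or 3 was left out (adjusted p 0.0504 to 0.0763). Of the 50-base stretches of Ftl1, 48.2% occurred in other genes, 47.3% in Ftl1-ps1, so that its counts are uncertain, and Ftl1-ps1 held 8 counts in all 12 libraries together. Ferritin heavy chain Fth1 had 261 to 346 CPM and passed in none of the 6 comparisons.

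Hmox1, the inducible heme oxygenase and a classical Nrf2 target, was lower on the NOD background. Hmox1 had 5.46, 4.49 and 4.23 CPM in NOD_insHEL and 5.95, 4.72 and 4.03 CPM in NOD, against 5.80, 4.70 and 8.05 CPM in B10_insHEL and 9.36, 11.2 and 7.77 CPM in B10. This made a log2 difference of -0.64 (SE 0.18, adjusted p = 0.00857). The 3 NOD libraries were below the 3 B10 ones, with a difference of -0.93 (SE 0.23, adjusted p = 0.00542), and in transgenic islets the groups overlapped, with a difference of -0.34 (SE 0.26, adjusted p = 0.456). Hmox2, the constitutive form, was also lower on average. Hmox2 had 43.7, 36.9 and 42.7 CPM in NOD_insHEL and 50.4, 47.5 and 44.8 CPM in NOD, against 56.6, 47.7 and 54.2 CPM in B10_insHEL and 62.3, 54.3 and 49.1 CPM in B10. On the log2 scale the difference was -0.29 (SE 0.08, adjusted p = 0.0116). The groups overlapped without insHEL and did not in transgenic islets. Both averaged differences passed under every alternative run. Of the 50-base stretches of Hmox2, 34.8% lie in Cdip1 on the opposite strand.

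NADPH supplies the electrons for both glutathione and thioredoxin reductase. Malic enzyme Me1 was higher in NOD and higher with insHEL in NOD (chr9:86581371-86695953, minus strand, GRCm38). Me1 had 37.3, 35.6 and 28.6 CPM in NOD_insHEL and 24.8, 23.2 and 23.5 CPM in NOD, against 20.2, 19.5 and 25.4 CPM in B10_insHEL and 21.8, 20.0 and 23.4 CPM in B10. The 3 NOD_insHEL libraries were above all 9 others. The strain difference was 0.40 (SE 0.10, adjusted p = 0.00345) on average, 0.67 (SE 0.14, adjusted p = 0.00286) in transgenic islets, where it passed under every alternative run, and 0.13 (SE 0.14, adjusted p = 0.493) without insHEL. In NOD_insHEL against NOD the difference was 0.53 (SE 0.14, adjusted p = 0.0275), and in B10_insHEL against B10 0.00 (SE 0.14, adjusted p = 0.994). With NOD_insHEL replicate 1 or 2, or NOD replicate 2 or 3 left out, Me1 did not pass in the insHEL difference in NOD (adjusted p 0.0844 to 0.157). Of its 50-base stretches 28.3% occurred in other genes, 21.1% in Gm7049, so that its counts are uncertain.

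Pgd, the second NADPH-producing enzyme of the pentose phosphate pathway, was higher in B10_insHEL than in B10, and in NOD than in B10. Pgd had 50.7, 45.5 and 41.8 CPM in NOD_insHEL and 42.7, 46.4 and 44.5 CPM in NOD, against 47.4, 40.0 and 50.3 CPM in B10_insHEL and 32.6, 35.3 and 29.2 CPM in B10. The 3 B10 libraries, at 29.2 to 35.3 CPM, were below all 9 others. Pgd differed by 0.50 (SE 0.12, adjusted p = 0.0149) with insHEL in B10, by 0.46 (SE 0.12, adjusted p = 0.00712) in NOD against B10 and by 0.24 (SE 0.09, adjusted p = 0.0368) between the strains on average. In transgenic islets the strain difference of Pgd was 0.02 (SE 0.12, adjusted p = 0.942). For Pgd, the insHEL difference in B10 did not pass when B10_insHEL replicate 3 or B10 replicate 1 or 3 was left out (adjusted p 0.0549 to 0.0929). The NOD against B10 difference of Pgd did not pass once B10 replicate 3 was left out (log2 difference 0.37, adjusted p = 0.0532). With NOD_insHEL replicate 1 or 2, NOD replicate 2 or 3, B10_insHEL replicate 2 or B10 replicate 1 or 3 left out, Pgd did not pass in the averaged strain difference (adjusted p 0.0545 to 0.121).

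Nnt, the mitochondrial transhydrogenase that makes NADPH from NADH, was higher in NOD on average. Nnt had 111, 94.5 and 93.4 CPM in NOD_insHEL and 81.6, 79.1 and 67.7 CPM in NOD, against 82.9, 41.3 and 83.6 CPM in B10_insHEL and 49, 66.5 and 63.4 CPM in B10. Its log2 difference was 0.44 (SE 0.16, adjusted p = 0.0453), while fitting the acinar score gave 0.01 (adjusted p = 0.975). B10_insHEL replicate 2 was the lowest of the 12 at 41.3 CPM, and the backgrounds did not overlap within transgenic islets or without insHEL. For Nnt, the averaged strain difference did not pass when NOD_insHEL replicate 1, 2 or 3, NOD replicate 1, 2 or 3 or B10 replicate 1, 2 or 3 was left out (adjusted p 0.0524 to 0.105). The reference genome's strain C57BL/6J is known to carry a deletion in Nnt, so that reads from the deleted exons would have no place in the reference. G6pdx, the first enzyme of the pathway, and transaldolase Taldo1 passed in none of the 6 comparisons.

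**Figure D5:**
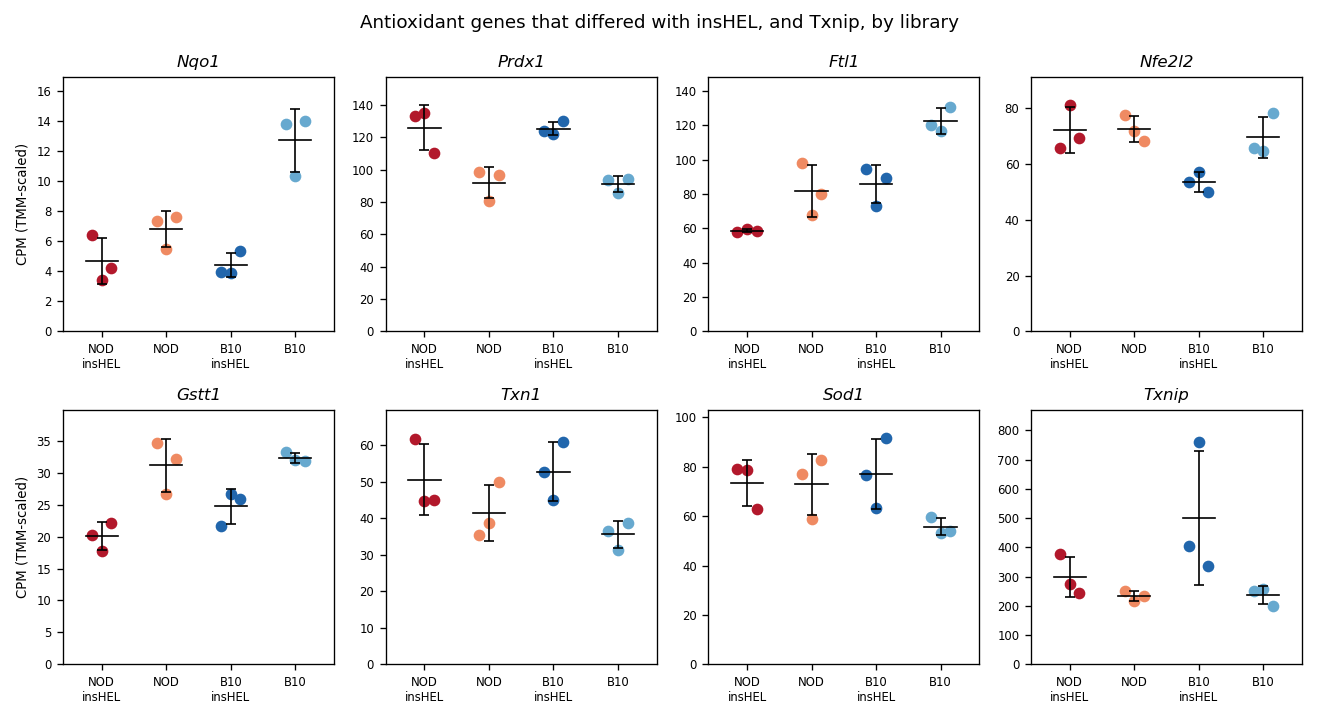
TMM-scaled CPM per library (points) with group mean and SD (n = 3 each) for Nqo1, Prdx1, Ftl1, Nfe2l2, Gstt1, Txn1, Sod1 and Txnip. The 3 B10 points of Nqo1 (10.3 to 14.0 CPM) lie above all others, all 6 insHEL points of Prdx1 lie above the rest, and B10_insHEL replicate 2 stands apart for Txnip at 762 CPM.

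Acinar RNA moved with both the strain and the insHEL differences in B10. The fit with the acinar score rests mostly on B10_insHEL replicate 2, so the values below depend largely on 1 library. When the acinar score was fitted as a covariate, 6 of 42 members passed for the averaged strain difference, 1 higher and 5 lower, against 15.3% of all genes, and the 6 were Gsta4, Ftl1, Gsr, Hmox1, Hmox2 and Keap1. Of the calls that ended, several kept their size on the log2 scale: Gpx7 1.04, Gpx8 0.65, Sod3 0.86, Nfe2l2 0.31 and Prdx3 -0.31 with the score, against 0.87, 0.66, 0.70, 0.25 and -0.29 without it. Others were smaller by over 1.5 times: Nnt 0.01, Prdx5 0.11, Pgd 0.11, Glrx 0.21 and Gstm1 0.33 with the score, against 0.44, 0.41, 0.24, 0.39 and 0.52 without it. Gclc, Gstm5 and Me1 lay in between, at -0.17, 0.24 and 0.29 with the score, against -0.23, 0.33 and 0.40 without it. For NOD against B10 3 members passed (Hmox1, Ftl1 and Txnip), against 8.34% of all genes, and for B10_insHEL against B10 3 passed (Nqo1, Ftl1 and Txnip), against 1.56%. There Pgd was 0.28 and Txn1 0.35 with the score, and for NOD against B10 Gstm1 was 0.31 and Pgd 0.25. In transgenic islets 5 passed (Gsta4, Me1, Nfe2l2, Ftl1 and Hmox2), against 11.6% of all genes, and for NOD_insHEL against NOD 6 passed (Prdx1, Me1, Txnip, Gstm1, Gstt1 and Ftl1), against 7.94%. With islet number as a covariate 13 of 42 passed on average (25.4% of all genes), without Gpx7, Gpx8, Sod3, Gstm5 and Pgd. In that fit 5 passed for NOD against B10 (Nqo1, Gsr, Hmox1, Gstm1 and Ftl1), against 17.5% of all genes, and 3 for B10_insHEL against B10 (Nqo1, Prdx1 and Prdx6), against 3.76%. Endothelial markers were lower in NOD_insHEL than in NOD (7 of 12 tested genes passed as lower, against 3.18% of all genes). Their part in the differences of Gstm1 and Gstt1 was not tested.

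Around the 42 members, other lists of the pathway were counted in the averaged strain difference, and the values beside the named genes are log2 differences of that comparison. The alternatives, such as the acinar score as a covariate or a library left out, were not run for these lists. Of 14 partners and regulators of Nrf2, 5 (35.7%) passed, 1 higher and 4 lower in NOD, against 33.3% of all genes. The small Maf protein Mafg was higher (0.48, adjusted p = 0.000669), and Bach2 (-0.87, adjusted p = 0.0114), a repressor at the same elements, Dpp3 (-0.54, adjusted p = 0.000116), which competes for Keap1, and the related factor Nfe2l1 (-0.32, adjusted p = 0.00216) were lower. Of 38 other Nrf2 targets tested (46 listed), 12 (31.6%) passed, 6 in each direction. The prostaglandin reductase Ptgr1 (1.48, adjusted p = 3.43e-05), Gstm2 (0.98, adjusted p = 4.66e-05) and Gstm7 (0.76, adjusted p = 0.0371) were highest. The glucuronosyltransferase Ugt1a6a (-3.09, adjusted p = 3.96e-06), the cystine transporter Slc7a11 (-2.95, adjusted p = 0.00407) and the export pump Abcc2 (-2.55, adjusted p = 7.59e-05) were lowest. They lay near the floor in the NOD-background libraries, at 0 to 0.863, 0 to 1.19 and 0.145 to 0.671 CPM in that order. There 3 counts made 0.227 to 1.36 CPM, so the size of these differences is uncertain.

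Of 44 further antioxidant genes 20 (45.5%) passed, 4 higher and 16 lower, against 33.3% of all genes. The metallothionein Mt3 (1.65, adjusted p = 0.000368), Park7 (0.44, adjusted p = 0.000479) and the endoplasmic reticulum peroxiredoxin Prdx4 (0.41, adjusted p = 0.00326) were highest. Lowest were the mitochondrial folate enzyme Aldh1l2 (-1.92, adjusted p = 0.000136), the glutathione-degrading enzyme Chac1 (-1.79, adjusted p = 0.0229) and the metallothionein Mt1 (-1.57, adjusted p = 0.00592). Of 12 tested genes whose products generate oxidants (19 listed), 7 (58.3%) passed, all higher in NOD, against 33.3% of all genes. Aldehyde oxidase Aox1 (1.20, adjusted p = 1.12e-05), the phagocyte oxidase subunit Ncf4 (0.99, adjusted p = 0.0395) and Nox4 (0.75, adjusted p = 0.0246) were highest. In NOD against B10 3 of the 12 passed (25%), against 28.4% of all genes. In transgenic islets 3 passed (25%), against 12.1%. The median log2 difference was -0.14 for the partners and regulators, 0.01 for the other targets, -0.01 for the further antioxidant genes and 0.52 for the sources of oxidants, against 0.01 over all genes. The macrophage markers (16 genes, 15 tested) summed to 279 to 371 CPM in NOD_insHEL, 235 to 333 in NOD, 337 to 411 in B10_insHEL and 254 to 313 in B10.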

How the data were processed

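Isolated islets of 12 mice were profiled with a stranded mRNA kit (labels' protocols). Per the submitters' processing notes, the tools were cutadapt, TopHat2 2.0.8b, HTSeq and DESeq, and the genome build GRCm38. The strand setting, counting mode and annotation are not given in the sources used here. The authors deposited unnormalised counts of reads by Ensembl gene identifier. Symbols, positions and exon lengths came from GENCODE on GRCm38 (36639 identifiers matched). Both strains were mapped to 1 reference, and an effect of strain sequence on the counts was not tested.

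The tests used edgeR 4.0.16 under R 4.3.3: filterByExpr (15352 genes), TMM, 1 model of the 4 group means over 12 libraries, robust quasi-likelihood F-tests, two-sided, Benjamini-Hochberg adjustment over all genes tested, threshold 0.05, common biological coefficient of variation 0.142. SE is the absolute log2 difference divided by the square root of F, and 95% intervals are normal. The script was tested on simulated data. The alternatives were DESeq2 1.42.0, its size factors, no filter, a replicate block, acinar score or islet number as a covariate, each library left out, and only the contrast's groups, with 1 pair of libraries left out added after the data were seen. Shared sequence was counted as 50-base stretches of a gene's exons found in other genes. Members and lists were chosen with earlier results of these data known. Members that passed in any comparison were named, and up to 3 highest and 3 lowest from each other list. Library totals limit precision most in NOD_insHEL replicate 3 (2212062 counts).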

Additional observations from a re-analysis of the deposited data

How the results depend on the processing

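Of 47 member differences that passed, 10 passed under every alternative run. The number of members called moved by more than 1.5 times in these cases. With the acinar score as a covariate it was 6 for the averaged strain difference, 3 for NOD against B10, 3 for B10_insHEL against B10 and 1 for the interaction (Txnip, against 0.319% of all genes). With islet number as a covariate it was 5 for NOD against B10 and 3 for B10_insHEL against B10. With only the groups of the contrast it was 5 for B10_insHEL against B10, and without both NOD_insHEL replicate 3 and B10_insHEL replicate 2, an alternative chosen after seeing the data, it was 13 there. Over all genes, leaving out this pair gave 1754 calls for B10_insHEL against B10, against 1052 in the main analysis. The cause was not tested. Over all genes, the calls for the averaged strain difference were 2343 with the acinar score, against 5107 in the main analysis. Those for NOD against B10 were 1281 with the acinar score and 2688 with islet number, against 4353, and those for B10_insHEL against B10 were 239, 578 and, with only the groups of the contrast, 646, against 1052. For NOD_insHEL against B10_insHEL the last setting gave 1197, against 1850, and the interaction had 161 without the filter and 105 with DESeq2, against 9. Leaving out 1 library gave 12 to 18 members for the averaged strain difference, 3 to 5 for NOD_insHEL against B10_insHEL, 7 to 11 for NOD against B10, 1 to 12 for B10_insHEL against B10, 0 to 5 for NOD_insHEL against NOD and 0 to 0 for the interaction. Over all genes these fits gave 4301 to 5245, 1344 to 1978, 2868 to 4021, 428 to 1566, 107 to 1348 and 2 to 162 calls in that order. Txnip reversed with the acinar score as a covariate in the averaged strain difference (0.19, adjusted p = 0.422), and the cause was not tested. The replicate numbers did not pair the samples (correlation of same-numbered libraries -0.10 to 0.08 over 18 pairs). With the replicate block, 7 members were called for NOD_insHEL against B10_insHEL, against 4 without it, and 17, 12, 9 and 5 for the averaged difference, NOD against B10, B10_insHEL against B10 and NOD_insHEL against NOD. Over all genes the block gave 1857 calls for NOD_insHEL against B10_insHEL, against 1850 without it, and 5023, 4263, 1032 and 961 for the others in that order, against 5107, 4353, 1052 and 1084. Among the members, depth limits Gsta4 and Gpx7, with 3 to 56 and 4 to 30 counts per library. It also limits low genes of the other lists, such as Ugt1a6a, Slc7a11, Abcc2 and Ncf4.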
